A study of Arabidopsis thaliana with 12 samples.

Results

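The genes described here had a signal on every array of control plants and were listed at exactly 0 on at least 1 array of plants that had recovered from the cold. They were chosen by their deposited intensities: a probe had to be annotated to a single gene, lie above 0 on all 6 control arrays and be at 0 on 1 or more of the 6 recovered arrays. Of 3439 probes on the array, 692 name a single gene. One of these loci was left out, and 180 of the remaining 691 probes met the rule, each for a different protein-coding gene. The same values that chose these genes are the recovered and control intensities given below, so they are a description, without a test.

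The plants were Arabidopsis thaliana, wild type, ecotype Columbia 0, and total RNA was hybridized to the arrays. The 6 recovered samples came from plants held for 24 h at 4 °C in medium light, which the labels call photoinhibitory, and returned for 24 h to 20 °C in medium light. The 6 control samples came from plants grown in medium light at 20 °C. The tissue, the light intensity and the origin of the replicates are not given in the sources used here, so the spread between samples may be technical.

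Light absorbed in the cold can exceed what carbon fixation is able to use, and the excess damages photosystem II, a state called photoinhibition. Plants answer it with carotenoids and other quenchers of excitation, with enzymes that remove reactive oxygen, and with repair of the thylakoid proteins once it is warm again.

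Intensities are linear, in arbitrary units between 0 and 100, and the sources used here do not say what made a value exactly 0. Recovered arrays were dimmer at the median probe (0.108 ± 0.0142, against 0.556 ± 0.0159 on control arrays; SD, n = 6 each) and held more probes at 0 (388 to 564, against 154 to 162). This dimming moved with every difference below, and its part in them was not tested. Recovered samples 3 and 4 stood apart with 564 and 556 probes at 0. Of the leaf markers, 3 of 5 had a probe of their own, all brighter after recovery in deposited values: PSBW, LHCB1.5 and PSAN averaged 43.1, 26.5 and 6.14 in recovered plants and 25.7, 13.7 and 3.52 in control plants. Those for flower (0 of 5), seed (0 of 4), root (0 of 3) and senescence (0 of 1) had none, so the makeup of the tissue could not be checked. In RNA pooled from many cells, fewer cells of a type and less RNA per cell cannot be told apart.

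Meeting the rule was common on these arrays. Of the 648 single-gene probes above 0 on all control arrays, 180, or 27.8%, were at 0 on a recovered array. Over the whole table the share was 26.2% (855 of 3264 probes, a number that includes the locus left out). For probes with several genes it was 27.8% (230 of 827) and for probes with no gene 24.8% (444 of 1788). The share among single-gene probes was thus near that of the whole table. The opposite pattern was absent from the whole table: 0 of the 2409 probes above 0 on all recovered arrays were at 0 on a control array. All 138 probes at 0 on every control array were also at 0 on at least 1 recovered array, 105 of them rose above 0 on some recovered array, and their highest recovered value was 0.381.

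Most of the 180 genes were at 0 on few arrays. On 1 recovered array only there were 92 genes, on 2 there were 39, on 3 there were 22, on 4 there were 14, on 5 there were 5 and on all 6 there were 8. The last 8 were 1.23% of the 648 single-gene probes, against 2.08% (68 of 3264) over all probes. Median control intensity varied little with the grade, at 0.385, 0.303, 0.361, 0.258, 0.266 and 0.358 from 1 array at 0 to 6. The ranges of control means overlapped in all grades.

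**Figure D1:**
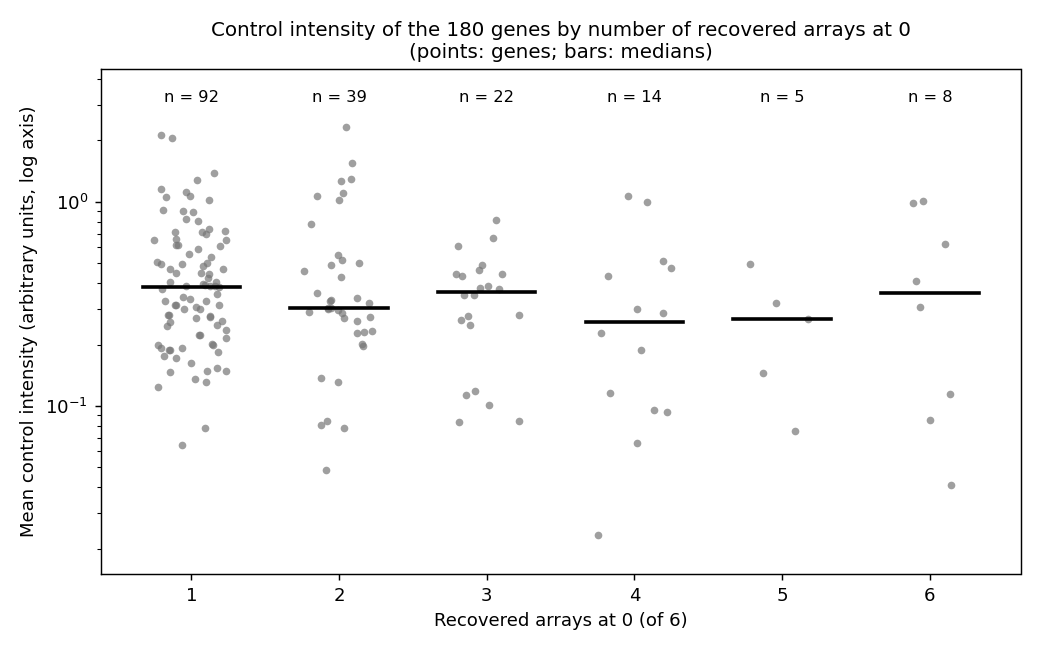
Mean control intensity (log axis, arbitrary units) of each of the 180 genes, arranged by the number of recovered arrays on which it was at 0; bars are medians. The medians lie between 0.258 and 0.385 in all 6 grades, and the brightest genes, above 2, were at 0 on 1 or 2 arrays.

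The 8 genes at 0 on all 6 recovered arrays carry only locus identifiers in the gene table. AT5G50350 was the brightest of them in control plants, at 0.861, 0.796, 1.32, 1.29, 0.919 and 0.889 in samples 1 to 6, a mean of 1.01 ± 0.229 (SD, n = 6). AT3G52550 followed with 1.21, 1.21, 0.786, 0.798, 0.939 and 0.979 in control plants. Control samples 3 and 4 were the highest for the first gene and the lowest for the second.

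AT1G32220 lay between 0.543 and 0.711 in control plants, around a median of 0.621. AT5G48130 was the steadiest of the 8, between 0.387 and 0.435 with a coefficient of variation of 4.83% over control samples. AT5G51670 lay between 0.256 and 0.35. These 5 genes were all above 0.25 in every control sample and at 0 in every recovered one. The other 3 were dim in control plants as well: AT4G09970 averaged 0.115 ± 0.0135, AT5G05330 0.0851 ± 0.0319 and AT1G29040 0.0412 ± 0.00911. AT5G05330 was the least steady of the 8, between 0.0334 in control sample 5 and 0.119 in control sample 4. With the whole group at 0, no fold is given for these genes.

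Another 5 genes were at 0 on 5 of the recovered arrays, and the array that kept a signal was not the same for all. AT1G35210 had 0.0502 in recovered sample 2 and 0 in the others, against 0.436 to 0.565 in control samples. AT1G72890 had 0.00923 in recovered sample 5 (control 0.247 to 0.412), and AT2G27680 had 0.0492 in the same sample (control 0.0863 to 0.179). AT1G11820 kept 0.0211 in recovered sample 6 (control 0.232 to 0.294). The last, CKS, is described with the named genes.

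Of the 14 genes at 0 on 4 arrays, AT5G01860 was the brightest in control plants. Its recovered samples 1 and 2 were at 0.0883 and 0.0491 and the other 4 at 0, against 0.918 to 1.18 in control samples. AT2G23890 had 0.138 in recovered sample 1 and 0.00783 in recovered sample 6, against 0.629 to 1.27, and its control samples 1 and 2 were the lowest of that group. AT2G37000 averaged 0.00983 ± 0.0173 in recovered and 0.515 ± 0.0949 in control plants. AT3G53470 averaged 0.00486 ± 0.0111 and 0.473 ± 0.0164, with the smallest control variation of all 180 genes (coefficient of variation 3.46%). AT4G31210 averaged 0.00729 ± 0.0113 and 0.434 ± 0.135. In none of these 5 did a recovered sample reach the lowest control sample.

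The 22 genes at 0 on 3 arrays were led by AT3G15140, with 0.0269 ± 0.0459 in recovered and 0.815 ± 0.218 in control plants. AT1G05340 averaged 0.0148 ± 0.0177 and 0.664 ± 0.0759, AT2G47680 0.019 ± 0.0244 and 0.608 ± 0.0837, AT2G21720 0.0144 ± 0.0183 and 0.490 ± 0.0429, and AT1G32730 0.0184 ± 0.0279 and 0.463 ± 0.0917. AT1G05340 was at 0 in recovered samples 1, 2 and 3 and lay at 0.0216 to 0.0422 in samples 4, 5 and 6.

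Genes at 0 on only 1 or 2 arrays included the brightest in control plants. AT5G15280 was at 0 in recovered samples 5 and 6 and at 0.0157 to 0.0921 in the other 4, against 1.46 to 1.62 in control samples. AT3G11150 averaged 0.0433 ± 0.0363 in recovered and 1.29 ± 0.117 in control plants. Among genes at 0 on 1 array, AT2G36480 averaged 0.0974 ± 0.0712 and 2.14 ± 0.449, AT1G17744 0.0549 ± 0.0433 and 2.06 ± 0.252, AT3G12000 0.204 ± 0.121 and 1.38 ± 0.0791, AT1G63610 0.0556 ± 0.0654 and 1.27 ± 0.0533, and AT5G35100 0.103 ± 0.0652 and 1.15 ± 0.493. In each of the 5 every recovered sample was below every control sample: AT3G12000 reached 0.336 in recovered sample 5 and no control sample lay under 1.28. AT5G35100 was the least even of them in control plants, at 0.499 and 0.578 in samples 3 and 4 and 1.28 to 1.62 in the others.

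Of the 468 single-gene probes above 0 on all 12 arrays, 27 had a recovered value under 0.01 and 147 one under 0.05. Nearest outside, as a share of the control mean, AT5G15390 had 0.000444 in recovered sample 4 and up to 0.139 in the others, against a control mean of 1.44 ± 0.129. AT3G56500 had 0.000182 in recovered sample 3 (control mean 0.113 ± 0.024) and ATATH8 0.00177 in recovered sample 4 (control mean 0.986 ± 0.0888). Inside, the 92 genes at 0 on 1 array had a second-lowest recovered value between 0.000299 and 0.14, with a median of 0.0167. Values just above 0 were thus found on both sides of the rule.

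Genes dim in control plants met the rule more often. Of the 162 single-gene probes with the lowest control means, 0.0235 to 0.326, 88 met the rule (54.3%), and of the next 162, up to 0.57, 50 did (30.9%). Of the 162 from 0.574 to 0.982, 22 did (13.6%), and of the 162 brightest 20 did (12.3%). The median control mean was 0.332 for the 180 genes, against 0.675 for the 468 single-gene probes above 0 on all 12 arrays. A control mean of 1 or more was held by 18 of the 180 and 135 of the 468, and one under 0.1 by 15 and 6. Spread between control samples was alike in both sets, with a median coefficient of variation of 14.7% and 12.9%.

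**Figure D2:**
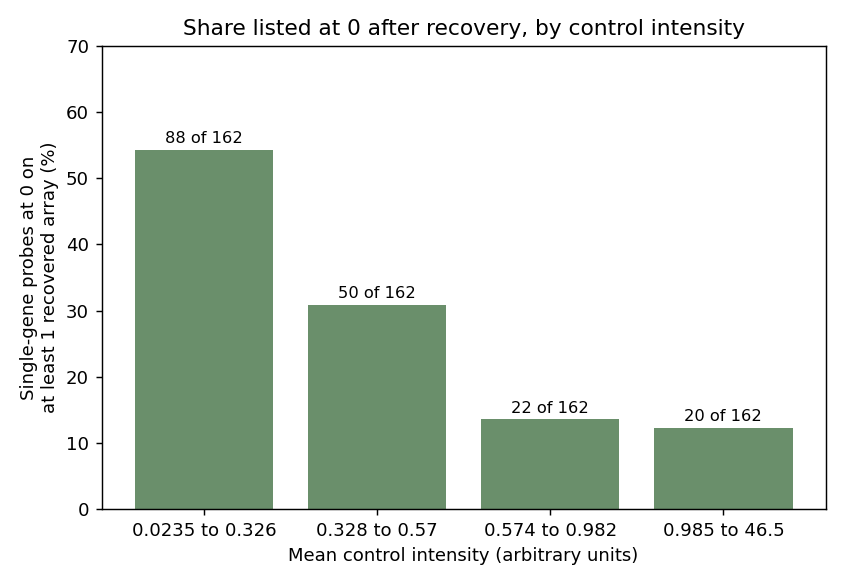
Percentage of single-gene probes at 0 on at least 1 recovered array, in 4 sets of 162 probes ordered by mean control intensity (arbitrary units); the numbers above the bars are genes of probes. The share was 54.3% in the dimmest set and 12.3% in the brightest.

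Where a recovered array did show a signal for these genes, it was small. Of their 1080 recovered values, 365 were 0 (33.8%), and the other 715 ran from 0.00022 to 0.336 with a median of 0.0463. Of those 715, 641 (89.7%) lay under the median probe of the same array. Control values ran from 0.0133 to 2.84 with a median of 0.338. Summed over the 180 genes, intensity was 6.58 ± 1.69 per recovered array and 81.2 ± 2.16 per control array, which is 0.205 ± 0.0508% and 2.21 ± 0.0617% of the array's total (SD, n = 6 each). On control arrays too the median of these genes lay under the median probe (0.334 ± 0.02 against 0.556 ± 0.0159). The rule selects for low recovered values, so nothing is read from these numbers.

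In deposited values the groups did not overlap for 168 of the 180 genes (93.3%), all of them lower after recovery, against a share of 69.1% over all 3439 probes. For the 468 single-gene probes above 0 on all 12 arrays that share was 71.6%. The rule used this contrast, so nothing is read from the difference. The count rested on the deposited scale: after quantile normalization the groups did not overlap, lower after recovery, for 46 genes (25.6%), against 20.2% of all probes. After each array was divided by its median they did not overlap for 62 genes (34.4%), against 17.6% of all probes. In deposited values the 12 exceptions were AT1G12230, AT5G03370, AT5G19150, AT3G08000, AT4G13550, AT5G58410, AT1G50510, AT2G38570, AT2G31800, AT2G44530, AT1G17850 and AT1G73090, listed here because of their values. All 12 were dim in control plants, with control means of at most 0.163. AT5G19150 was the clearest, with 0, 0.0324, 0.061, 0, 0.241 and 0 in recovered samples 1 to 6, against 0.113 to 0.131 in control samples. Recovered sample 5 was thus above every control sample while 3 others were at 0. AT5G03370 had 0.0628 in recovered sample 3 and 0.043 in recovered sample 6, against at most 0.0341 in control samples.

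The median log2 difference of the 180 genes, recovered minus control, was -1.72 on the scale of intensity plus 0.1, against -1.25 over all probes. The offset understates the change of dim genes. All 180 lay below 0 on this scale, with values from -4.22 to -0.099, beside 84.9% of all probes. The median of the genes minus that of all probes was -0.47. When arrays were quantile normalized, the median of the genes was -0.35 and that of all probes 0.090, with 127 genes lower and 53 higher. With each array divided by its median these medians were -0.74 and 0.11, with 161 genes lower and 19 higher. The share of all probes that were lower was not counted under these 2 scalings, where their median lay above 0. The rule selects for low recovered values, so nothing is read from these counts. Of the 90 genes brighter in control plants 89 stayed lower in both scalings, and of the 90 dimmer ones 38 did. Of the 8 genes at 0 on all recovered arrays 7 did, the exception being AT1G29040 under quantile normalization. That gene was at 0 in every recovered sample and above 0 in every control sample. Quantile normalization gave all probes at 0 on an array their average rank. On recovered arrays, which held more zeros, that rank carried a value above 0. The handling of zeros thus enters these values, and its part in the 53 higher genes was not tested. The sign of the difference changed with the scaling mainly for the genes that were dim in control plants. The control level is part of that difference and the rule asks for a recovered 0, so nothing is read from this.

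**Figure D3:**
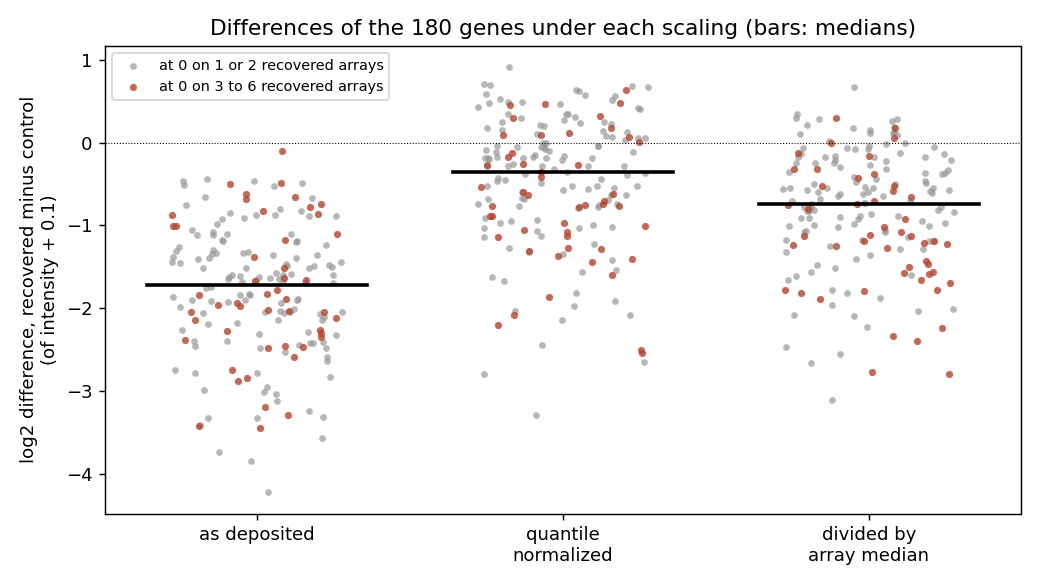
log2 difference, recovered minus control, of intensity plus 0.1 for each of the 180 genes under 3 scalings; red points are genes at 0 on 3 to 6 recovered arrays and bars are medians. The medians are -1.72 as deposited, -0.35 after quantile normalization and -0.74 after division by the array median. Genes above the dotted line are higher under that scaling, and recovered zeros take a value above 0 in quantile normalization.

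Of the 180 genes, 17 have a symbol of their own in the gene table and 163 only a locus identifier. Among single-gene probes above 0 on all control arrays, those with a symbol met the rule in 17 of 88 cases (19.3%) and the others in 163 of 558 (29.2%). AT1G78790 has no symbol but the synonym MHF2 and is included with them, which makes 18 genes with a name in that table. A gene with only a locus identifier there may still have a known function. In deposited values all 18 had groups that did not overlap, beside 93.3% of the 180 genes and 69.1% of all probes. After quantile normalization the groups did not overlap for 4 of the 18 (Z-ISO, AT-HF, APTX and GH9B16), beside 20.2% of all probes. After division by the array median they did not overlap for 10, beside 17.6% of all probes. Of the 18, 13 were at 0 on 2 or more recovered arrays, as were 88 of the 180. The rule selects for both features, so nothing is read from these counts.

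**Figure D4:**
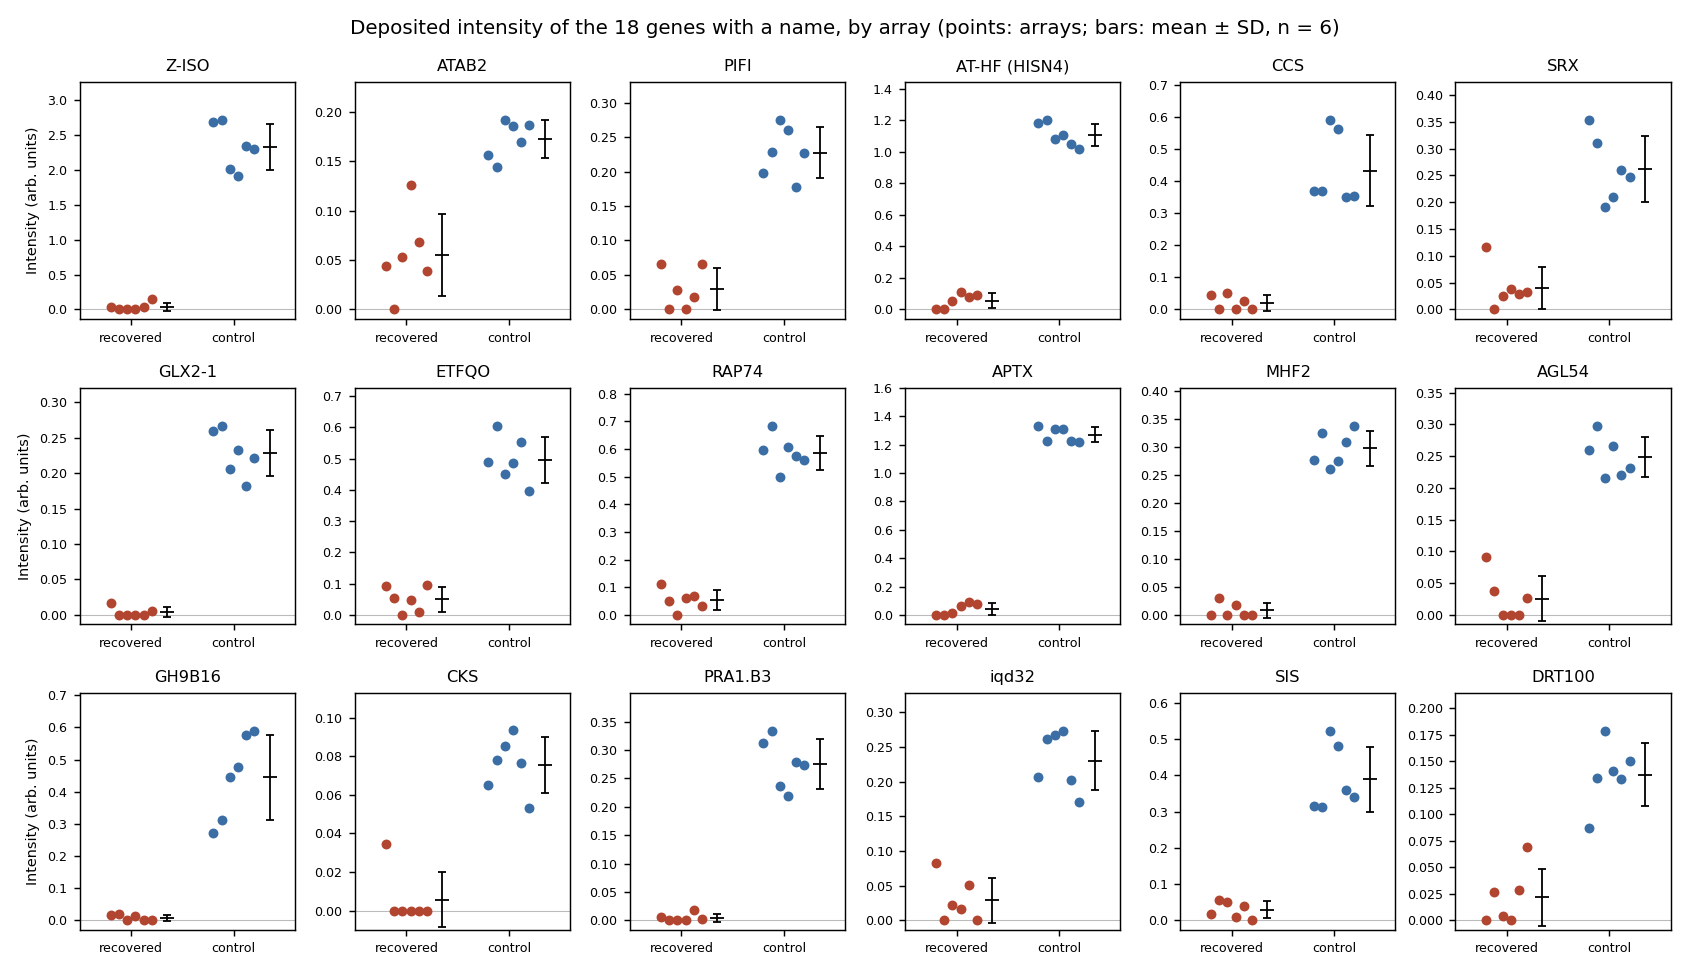
Deposited intensity (linear axes, arbitrary units) of the 18 genes with a name on each of 6 recovered (red, left) and 6 control (blue, right) arrays, with the mean ± SD. For each gene the highest recovered point, in deposited values, lies below the lowest control point, and Z-ISO has the highest control level, 1.91 to 2.71.

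Among these, 4 encode plastid proteins, with log2 differences from -4.22 to -0.85. Z-ISO, the isomerase that turns one form of zeta-carotene into the next on the way to lycopene and the photoprotective carotenoids, had the largest difference of all 180 genes. Its intensities in recovered samples 1 to 6 were 0.0346, 0.00114, 0, 0, 0.0397 and 0.142, against 2.68, 2.71, 2.01, 1.91, 2.34 and 2.3 in control samples. Every recovered sample was thus far below every control sample, and the 2 zeros were in recovered samples 3 and 4. AT-HF, also called HISN4, is a cyclase and glutamine amidotransferase of histidine synthesis. It was at 0 in recovered samples 1 and 2 and at 0.0538 to 0.109 in the other 4, against 1.02 to 1.2 in control samples (log2 difference -3.01).

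PIFI, named for the rise of chlorophyll fluorescence after illumination and linked to electron flow from the stroma to plastoquinone, averaged 0.0295 ± 0.0299 in recovered and 0.228 ± 0.0367 in control plants. It was at 0 in recovered samples 2 and 4. Its log2 difference was -1.36 as deposited, -0.0079 after quantile normalization and -0.44 after division by the array median. ATAB2, an RNA-binding factor needed for translation of photosystem subunits in the plastid, averaged 0.0548 ± 0.0416 and 0.172 ± 0.019. ATAB2 was at 0 in recovered sample 2 only, and its log2 difference of -0.85 was 0.58 after quantile normalization and 0.29 after division by the array median. For Z-ISO these values were -3.29 and -3.10, and for AT-HF -1.67 and -1.66, so PIFI and ATAB2 were near or above 0 after quantile normalization while Z-ISO and AT-HF stayed well below it. The neighbour of ATAB2 on chromosome 3, AT3G08000, with no protein-coding gene between them, also met the rule. So did 27.8% of the single-gene probes above 0 on all control arrays.

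Another 4 have roles in redox balance or the mitochondrion. CCS, the chaperone that loads copper into copper/zinc superoxide dismutase, had 0.0461, 0, 0.0509, 0, 0.026 and 0 in recovered samples 1 to 6, against 0.35 to 0.589 in control samples. Its zeros alternated with positive values, so each consecutive pair held 1 of each. SRX, the sulfiredoxin that restores overoxidized peroxiredoxins, was at 0 in recovered sample 2 and at 0.116 in recovered sample 1, and averaged 0.0401 ± 0.0396 and 0.262 ± 0.0613. Its log2 difference was -1.39 as deposited and 0.058 after quantile normalization.

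GLX2-1 belongs to the glyoxalase II family, whose enzymes complete the glutathione-dependent removal of methylglyoxal. It was at 0 in recovered samples 2 to 5 and averaged 0.00365 ± 0.00684 in recovered and 0.228 ± 0.0323 in control plants. ETFQO, which passes electrons from the breakdown of amino acids and other substrates to ubiquinone, averaged 0.05 ± 0.0398 and 0.497 ± 0.0738, with 0 in recovered sample 3. GLX2-1 and ETFQO lie on chromosome 2 with 2 protein-coding genes between them.

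The nucleus is the site of another 4. APTX, which resembles aprataxin, an enzyme known in animals for clearing blocked ends at DNA breaks, had 0, 0, 0.0151, 0.0649, 0.0935 and 0.0791 in recovered samples 1 to 6, against 1.22 to 1.33 in control samples. Its log2 difference was -3.32. MHF2, a histone-fold partner of the FANCM helicase in DNA repair and meiotic recombination, had 0.0306 and 0.0183 in recovered samples 2 and 4 and 0 in the other 4, against 0.26 to 0.338 in control samples. RAP74, a subunit of the general transcription factor TFIIF, averaged 0.054 ± 0.0371 and 0.586 ± 0.0609, and AGL54, a MADS-box protein, averaged 0.0258 ± 0.0358 and 0.248 ± 0.0318. RAP74 was at 0 in 1 recovered sample and AGL54 in 3.

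Cell wall and membrane proteins accounted for 3. GH9B16, a family 9 glycosyl hydrolase of the endoglucanase type, averaged 0.00808 ± 0.00907 in recovered and 0.445 ± 0.132 in control plants, with control samples 1 and 2 lowest at 0.272 and 0.311. PRA1.B3, a prenylated Rab acceptor of the endomembrane system, averaged 0.00455 ± 0.00694 and 0.276 ± 0.0436. CKS, which activates the sugar KDO for a pectin of the cell wall, had 0.0344 in recovered sample 1 and 0 in the others, against 0.0533 to 0.0938 in control samples. CKS was among the dimmest named genes, and its log2 difference of -0.73 was 0.068 after quantile normalization.

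The last 3 were iqd32, a calmodulin-binding IQ-domain protein, SIS, named as a salt-induced serine-rich protein, and DRT100, named for DNA damage repair and toleration. iqd32 averaged 0.0287 ± 0.0323 in recovered and 0.23 ± 0.0424 in control plants. SIS averaged 0.0295 ± 0.0233 and 0.389 ± 0.0897, and DRT100 0.0216 ± 0.0268 and 0.137 ± 0.0298. DRT100 moved to 0.31 after quantile normalization, against -0.98 as deposited.

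Relatives that did not meet the rule were also lower after recovery in deposited values, as were 84.9% of all probes. PRA1.B6 averaged 0.0658 ± 0.0559 in recovered and 1.6 ± 0.311 in control plants without a 0. The endoglucanase-type genes GH9B11, GH9B12 and GH9B8 averaged 0.121, 0.0759 and 0.0346 in recovered plants and 0.718, 0.431 and 0.288 in control plants, also without a 0. The MADS-box genes AGL103 and AGL26 averaged 0.269 and 0.141 in recovered and 0.779 and 0.538 in control plants. IQD22 differed least, at 0.0619 ± 0.0538 in recovered and 0.083 ± 0.00915 in control plants. In deposited values the log2 difference was -1.38 for iqd32 and -0.23 for IQD22. That of iqd32 was -0.043 after quantile normalization. Levels of different probes are not set against each other.

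Zeros were unevenly spread over the recovered arrays. Recovered samples 1 to 6 held 52, 50, 82, 78, 51 and 52 of the 180 genes at 0. Of the 92 genes at 0 on a single array, 52 had that zero in recovered sample 3 or 4, and 124 of the 180 were at 0 in one or both of these. Without recovered samples 3 and 4 the rule finds 121 genes. At 0 in at least 1 sample of each consecutive pair (1 and 2, 3 and 4, 5 and 6) were 29 genes.

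**Figure D5:**
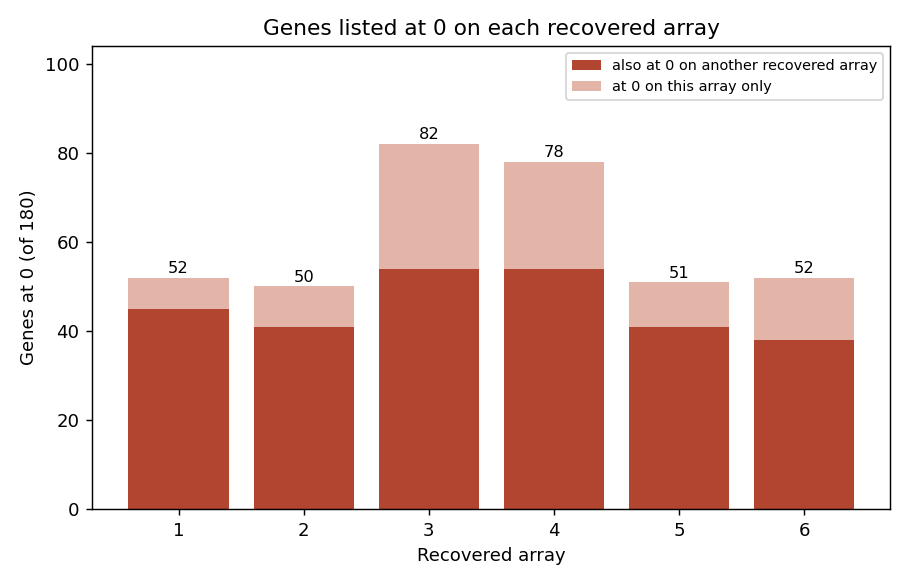
Number of the 180 genes at 0 on each of the 6 recovered arrays, split by whether the gene was also at 0 on another recovered array (dark) or on that array only (light). Arrays 3 and 4 hold 82 and 78 genes and the others 50 to 52.

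Consecutive samples shared zeros a little more than others. Of the genes at 0 on either array of a consecutive pair, 28.8% to 32.5% were at 0 on both, against 18.6% to 30.1% for the other 12 pairs of arrays. In control plants likeness was plainer: the median difference of the 180 genes was 6.28% to 8.15% of their level within consecutive pairs and 10.7% to 26.7% otherwise. No label says that these samples are technical pairs. Control samples 1 and 2 averaged under 50% of the other control samples for 4 genes, AT1G24310, AT4G33480, AT4G20760 and AT4G02800, named because of their values.

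The genes lie on all 5 chromosomes. Shares were taken over the 646 single-gene probes above 0 on all control arrays and found in the gene table. The rule was met by 32.5% on chromosome 1 (51 genes), 23.8% on 2 (29), 29.8% on 3 (37), 20.7% on 4 (24) and 30.7% on 5 (39). Over all 648 single-gene probes above 0 on all control arrays the share was 27.8%. Of 70 pairs of successive measured genes with at most 3 protein-coding genes between them, both met the rule in 6, one did in 22 and none did in 42. Besides the pairs named above, these were AT1G73090 and AT1G73120, AT2G27630 and AT2G27680, AT3G11960 and AT3G12000, and AT5G48110 and AT5G48130. AT5G48130 was at 0 on all 6 recovered arrays and AT5G48110 on 1. No number of pairs expected from the share of 27.8% was worked out, so nothing is read from the pairs.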

How the data were processed

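Array intensities of 12 samples, 6 recovered and 6 control, were read from the deposited table, which holds 3439 probes. The sources used here do not say how the authors corrected, scaled or floored these deposited intensities, and the unit was inferred from the values. Genes were named from the platform annotation and matched to the RefSeq gene table of TAIR10.1, in which all 180 genes were found. That table holds no product text, so the planned function classes were not applied, and roles are given for all genes with a symbol, and for MHF2, from textbook knowledge. No promoter sequence was used here. Named genes were those at 0 on all 6 recovered arrays, the 5 with the highest control mean at each other grade, and those with a symbol, beside 3 just outside the rule. The genes and lists were chosen with earlier results of these data known.

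No test between the groups was run, since the rule uses the contrast between the groups. Differences are of log2(intensity + 0.1), recovered minus control. On simulated arrays of 3439 probes the selection found 200 of 200 probes planted with zeros and 0 others. Only planted values could be 0 there, so this checked the code and not how reliable a deposited 0 is. Alternatives covered the zero and control limits, annotation, scaling, offset and leaving out samples. Python 3.11.15, pandas 2.3.3 and matplotlib 3.10.9 were used. The number of arrays limits the precision.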

Additional observations from a re-analysis of the deposited data

Results flagged for a closer look

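Among 86 groups of 6 samples of the named genes, 13 held 1 sample far from the others, measured by its gap to the nearest sample over the range of the group. The usual rate of about 1 in 20 groups by chance does not apply, because the rule chose the recovered groups for holding zeros. All 13 were recovered groups with a high sample, and 8 groups with 6 zeros were not checked. In 5 of the 13 the other 5 samples were at 0, which meets the check by construction: AT1G35210 (0.0502 in recovered sample 2), AT1G72890 (0.00923 in sample 5), AT1G11820 (0.0211 in sample 6), AT2G27680 (0.0492 in sample 5) and CKS (0.0344 in sample 1). AT2G23890 had 0.138 in recovered sample 1 and at most 0.00783 in the others, and AT3G53470 had 0.0274 in sample 2 and at most 0.0018. AT3G15140 had 0.117 in sample 6 and at most 0.0302 in the others. AT1G32730 had 0.0716 in sample 1 and at most 0.0233. Z-ISO had 0.142 in sample 6 and at most 0.0397, GLX2-1 had 0.017 in sample 1 and at most 0.00489, PRA1.B3 had 0.0177 in sample 5 and at most 0.0065, and SRX had 0.116 in sample 1 and at most 0.0387. Recovered sample 1 was the distant one in 5 of these groups.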

How the results depend on the processing

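The count of 180 genes depends on the limits. It was 207 with recovered values of at most 0.01 taken as 0 and 327 with at most 0.05. Control values of at least 0.1 left 156 genes and of at least 0.25 left 98. At least 2 arrays at 0 left 88, and both arrays of a consecutive pair at 0 left 59. With probes of several genes there were 410, and over all probes 854. Leaving out 1 recovered sample gave 152 to 173 genes and 1 control sample 180 to 181. Leaving out consecutive pairs, chosen after seeing the data, gave 121 to 159 without a recovered pair and 180 to 181 without a control pair. Groups without overlap numbered 168 (93.3%), but 46 (25.6%) after quantile normalization, against 20.2% of all probes, and 62 (34.4%) after division by the array median, against 17.6%, with 168 to 170 when 1 sample was left out. The median log2 difference of -1.72 was -3.48 with an offset of 0.01, -0.37 with 1, -0.35 after quantile normalization and -0.74 after division by the array median, and -1.77 to -1.66 without 1 sample. Of 47 named genes, quantile normalization turned the sign for AT1G29040 (0.11), CKS (0.068), DRT100 (0.31), SRX (0.058) and ATAB2 (0.58), and division by the array median for ATAB2 (0.29). Recovered zeros take a value above 0 under quantile normalization, and their part in these signs was not tested. The unknown floor limits every dim gene. Groups share replicate numbers 1 to 6. With the number as a replicate block, added after seeing the data and without a test, the median log2 difference is -1.72 by construction. In all 6 pairs 171 of the 180 genes were lower after recovery, against 74.0% of all probes. Deviations of same-numbered samples correlated above 0.1 in 2 of 6 pairs, numbers 3 and 4 (from -0.013 to 0.14 over all probes). Of the 6 recovered samples, 3 correlated best with the control sample of their own number. Whether same-numbered samples share more than a number was not tested.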
